A study of Mus musculus with 249 samples.

Results

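The brains low in cerebellar transcripts were 16 F2 mouse brains of 248 compared, chosen by the measured value of Gabra6, the gene of the alpha6 subunit of the GABA-A receptor. A brain was called low when its Gabra6 value was below -0.7 and was put with the rest when it was above -0.3, on the scale of the log10 ratio of animal to pool, on which 0 means the same level as the pool. This gave 16 low brains, 8 brains between the thresholds and 224 brains in the rest, and the brain of animal 144 was left out of the series of 249. Low brains made up 6.45% of those compared, with an exact (Clopper-Pearson) 95% interval of 3.73% to 10.3%. Because Gabra6 defined the groups, its own values are given as a description, and tests concern the other genes only.

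All groups came from 1 intercross of C57BL/6J and C3H/HeJ mice in which both parental strains lacked ApoE, and no group had a working ApoE gene. The mice of every group had eaten a high fat Western diet from 8 to 24 weeks of age. Females and males were included, but neither sex nor genotype at other loci is given for each animal, and the dissection of the brain is not described in the sources used here. Each brain was hybridised once against a common pool made from equal amounts of RNA of all the animals, with the animal in Cy3 and the pool in Cy5, so each value is a ratio and carries no absolute level; whether a tissue's defining markers were absent can therefore not be read from it. The labels carry no treatment, genotype or dissection that separates the low brains from the rest.

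The cerebellum is the part of the hindbrain that adjusts movement. The circuit of its cortex rests on granule cells, the most numerous neurons of the brain, and on Purkinje cells, which send that cortex's output. Granule cells receive mossy fibre input and excite Purkinje cells through parallel fibres, while Bergmann glia and inhibitory interneurons surround them. Gabra6 is known as a transcript of granule cells, Cbln1 encodes a cerebellin that granule cells release at their synapses with Purkinje cells, and Pcp2 encodes a Purkinje cell protein that acts on G protein signalling.

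The upstream sequences of Gabra6 and Pcp2 are shown because these genes stand for the granule cell and the Purkinje cell side of the comparison. Both are the 250 bases before the start of the gene, 5′ to 3′ on the gene's own strand, from RefSeq on GRCm38.p6. The Gabra6 sequence lies at chr11:42321073-42321322 on the minus strand and the Pcp2 sequence at chr8:3625548-3625797 on the minus strand, the outermost of 4 starts listed for Pcp2. Capitals mark the motif TTGGC, the core recognised by nuclear factor I proteins, on either strand, where it reads GCCAA on the other.
Gabra6: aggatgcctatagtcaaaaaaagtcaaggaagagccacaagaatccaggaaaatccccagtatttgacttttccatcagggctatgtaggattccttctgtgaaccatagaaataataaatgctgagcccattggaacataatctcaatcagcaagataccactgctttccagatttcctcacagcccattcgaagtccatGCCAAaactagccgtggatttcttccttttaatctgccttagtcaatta
Pcp2: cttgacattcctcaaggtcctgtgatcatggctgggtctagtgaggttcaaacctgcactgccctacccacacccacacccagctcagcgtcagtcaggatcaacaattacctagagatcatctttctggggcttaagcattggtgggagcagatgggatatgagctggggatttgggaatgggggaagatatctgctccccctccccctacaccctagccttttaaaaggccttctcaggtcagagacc
The Gabra6 window held 1 copy of TTGGC and the Pcp2 window held 0, and 41.5% of all 32851 windows of this length held at least 1. The E-box CAGATG occurred once in the Pcp2 window and not in the Gabra6 window, against 14.4% of all windows, and CAGCTG occurred in neither, against 13.0% of all windows. Both strands were searched, and the motifs do not overlap in these windows. Cbln1, En2, Crtam and Ppp1r17 are named only.

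Gabra6 values in the low brains were -1.93 at the lowest, -1.41 at the median and -0.703 at the highest, against -0.291, 0.0567 and 0.506 in the rest. The mean was -1.35 ± 0.458 in low brains (SD, n = 16) and 0.0466 ± 0.109 in the rest (SD, n = 224), a difference of -1.39 or a level 24.8-fold lower. The low brains were themselves spread out, and the 4 lowest, animals 8, 88, 28 and 91, lay at -1.93, -1.89, -1.89 and -1.88. The brains just inside the low threshold were animal 18 at -0.703 and animal 64 at -0.733, and those just outside it were animal 14 at -0.575 and animal 122 at -0.494. At the other threshold animal 77 lay at -0.314 between the groups and animal 178 at -0.291 in the rest.

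**Figure D1:**
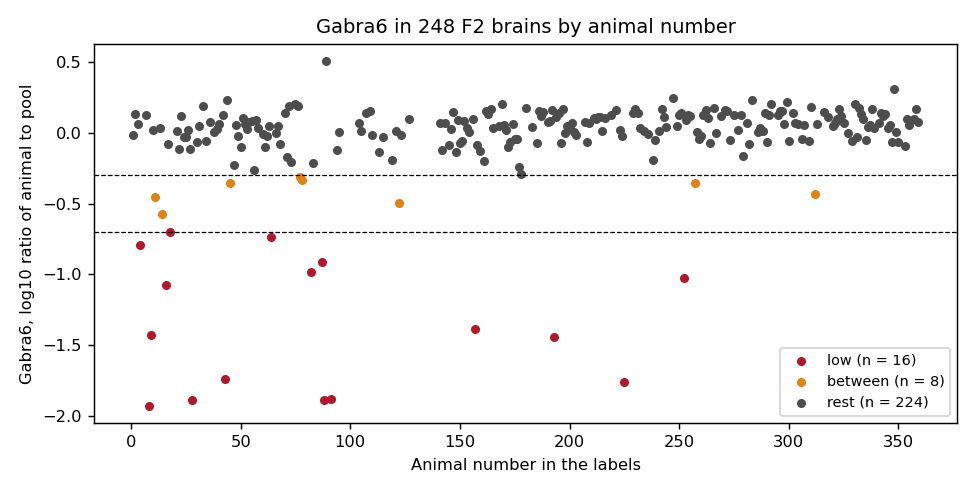
Gabra6 value of each of the 248 brains (log10 ratio of animal to pool, y axis) against the animal's number in the labels (x axis); colours mark low (n = 16), between (n = 8) and rest (n = 224), and dashed lines mark the 2 thresholds. Most low brains have low animal numbers, with 12 of 16 numbered 91 or below.

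The low brains were not spread evenly over the animal numbers. Their mean number was 85.3 ± 80.6 (SD, n = 16), against 195 ± 105 in the rest (SD, n = 224), and a two-sided permutation test with 100000 resamples gave p = 6e-05. Numbers of 91 or below were carried by 12 of 16 low brains and by 51 of 224 brains of the rest. The limit of 91 is itself the number of a low brain and was chosen after the values were seen. The labels do not say what the numbers stand for, and no batch is given, so each comparison was repeated on either side of the median number, 192.5. The lower numbers held 13 low brains and 105 of the rest, and the higher numbers 3 low brains and 119 of the rest. Within the lower numbers, 12 of 13 low brains and 51 of 105 of the rest were numbered 91 or below, so the split did not even out the numbers. Fits that include the animal number, and an interaction test between lower and higher numbers, are given below. Whether the order of the animals had a part in the result was not tested beyond these. The Y-linked gene Eif2s3y, which splits the animals into 2 levels, was at its upper level in 9 of 16 low brains and in 109 of 224 brains of the rest, so the low group held animals of both levels.

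Across 11507 genes tested without Gabra6, limma called 899 lower (7.81%) and 1233 higher (10.7%) in low brains at an adjusted p under 0.05. The differences were mostly small, with a median of 1.14-fold among the genes called in either direction, while the median difference over all genes was 0.00286 on the log10 scale. Genes that differed by 1.5-fold or more were almost all lower: 86 (0.747%) were lower and 2 (0.0174%) were higher. For 18 genes (0.156%) every low brain lay under every brain of the rest, and for 0 genes (0.0%) every low brain lay above. All 16 low brains lay under the median of the rest for 207 genes (1.8%) and over it for 66 genes (0.574%). In RNA from a whole tissue, fewer cells of a type and less RNA per cell cannot be told apart.

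Among the lower animal numbers 649 genes (5.64%) were lower and 716 (6.22%) higher, of which 81 (0.704%) were lower and 1 (0.00869%) higher by 1.5-fold or more. Among the higher numbers, with 3 low brains, 275 genes (2.39%) were lower and 264 (2.29%) higher, of which 106 (0.921%) and 23 (0.2%) passed 1.5-fold. With a smooth curve of the animal number in the fit, 736 genes (6.4%) were lower and 965 (8.39%) higher, and 83 (0.721%) and 2 (0.0174%) passed 1.5-fold.

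Cbln1 and Pcp2, the other cerebellar markers, separated the groups without overlap. Neither was used to form the groups. Both were chosen as markers with earlier results of these data known and were read from the same arrays as Gabra6, so their separation is not independent support. Cbln1 values ran from -0.797 through a median of -0.61 to -0.425 in low brains, against -0.246, 0.0232 and 0.3 in the rest, and its mean was 4.05-fold lower (difference -0.608 ± 0.0203, SE; adjusted p = 6.5e-80). Pcp2 values ran from -0.549 through a median of -0.322 to -0.227 in low brains, against -0.139, 0.0235 and 0.273 in the rest, and its mean was 2.47-fold lower (difference -0.393 ± 0.0157, SE; adjusted p = 5.92e-66). Every low brain thus lay under the lowest brain of the rest in both genes. The Cbln1 difference was -0.588 among the lower animal numbers and -0.723 among the higher. Gabra6, Cbln1 and Pcp2 were each measured by 1 probe.

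**Figure D2:**
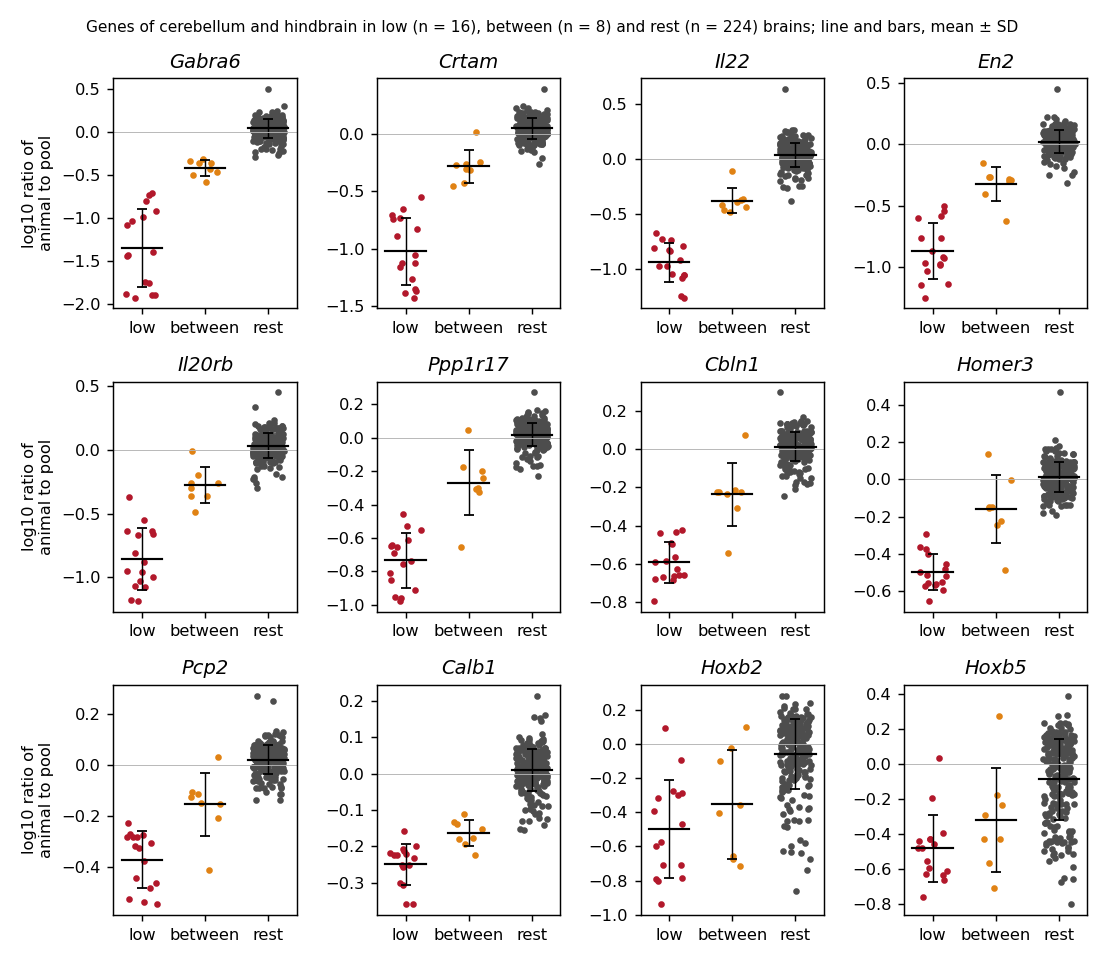
Values of 12 genes (log10 ratio of animal to pool, y axis) in low, between and rest brains (x axis, 1 point per animal). Lines and bars show the mean and SD. Crtam, Il22 and Il20rb are on none of the gene lists of cerebellum or hindbrain and are shown for their large differences. Low brains lie apart from the rest in Gabra6, Crtam, Il22, En2, Il20rb, Ppp1r17, Cbln1, Homer3, Pcp2 and Calb1, and overlap with it in Hoxb2 and Hoxb5.

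Granule cell genes were lower in most cases. Of 28 genes listed, 25 were measured and 24 were tested after leaving out Gabra6; 18 were lower, 0 were higher and 6 did not pass, with a median difference of -0.128 against 0.00286 over all genes. Here and in the lists that follow, a count of 0 by limma was also 0 at an unadjusted p under 0.05 and by the rank test, except for the ependymal list (1 lower without adjustment), the myelin list (1 higher without adjustment) and the astrocyte list (2 higher without adjustment and 1 by the rank test). Each count of a list stands against 7.81% of all genes called lower and 10.7% called higher. The mean of the granule cell list lay between -0.242 and -0.128 in the 16 low brains, all of them under the lowest brain of the rest at -0.0996. Il16, which is processed to a cytokine and has a neuronal form in granule cells, ranged from -0.778 through -0.521 to -0.281 in low brains, against -0.265, 0.0233 and 0.355 in the rest, and was 3.56-fold lower (adjusted p = 1.96e-73). Chn2, a GTPase-activating protein for Rac, was 3.2-fold lower (difference -0.506 ± 0.02, SE; adjusted p = 1.64e-66), and 15 of 16 low brains lay under all of the rest. Zic1, a zinc finger factor of granule cell precursors, was 2.7-fold lower, with -0.636, -0.437 and -0.197 in low brains as lowest, median and highest and -0.296, -0.00993 and 0.518 in the rest. The related Zic2 was 1.46-fold lower. Pax6, a homeodomain factor of granule cells, was 2.2-fold lower, the cerebellin Cbln3 1.83-fold and the protocadherin Fat2 1.88-fold. Reln, the secreted protein that granule cells release, was 1.4-fold lower (adjusted p = 3.9e-14). Among receptor subunits typical of granule cells, Grin2c, an NMDA receptor subunit, was 1.62-fold lower and Gabrd, the delta subunit that pairs with Gabra6, was 1.27-fold lower. Gabrd values overlapped, from -0.223 to -0.00571 in low brains against -0.288 to 0.245 in the rest. Pax6, Cbln3, Fat2 and Zic2, and below Stk17b, Gng13, Timp4, the Hox and forebrain genes given without a p and the subunits Grm5 and Grin2b, are examples chosen after their values were seen.

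Purkinje cell genes were mostly lower too. Of 36 listed genes 24 were measured and tested; 14 were lower, 3 were higher and 7 did not pass, with a median difference of -0.0731. Ppp1r17, a protein phosphatase inhibitor known as G-substrate, showed the largest difference of the list, with -0.978, -0.715 and -0.458 in low brains, against -0.229, 0.0222 and 0.272 in the rest, a 5.66-fold lower mean (adjusted p = 2.07e-98). Homer3, a scaffold of metabotropic glutamate receptors at Purkinje cell spines, ranged from -0.652 through -0.516 to -0.291 in low brains, against -0.19, 0.0105 and 0.468 in the rest, and was 3.22-fold lower (adjusted p = 1.21e-62). Neither gene overlapped between the groups. Calb1, the calcium buffer calbindin, which other neurons also express, was 1.81-fold lower and did not overlap either, with -0.36 to -0.158 in low brains against -0.154 to 0.215 in the rest. Slc1a6, the glutamate transporter EAAT4, was 2.72-fold lower. Lhx1, a LIM homeodomain factor, was 2.96-fold lower, and 14 of 16 low brains lay under all of the rest. Gng13, a G protein gamma subunit, was 1.89-fold lower, and Stk17b, a serine/threonine kinase, 2.25-fold. The 3 higher genes were Foxp2, Itpka and Bcl11a, which forebrain neurons are also known to express. Bcl11a was 1.29-fold higher (difference 0.11 ± 0.0199, SE; adjusted p = 3.1e-06) and Foxp2 1.13-fold higher, with all 16 low brains over the median of the rest.

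Bergmann glia genes included 8 lower, 2 higher and 3 that did not pass, of 13 tested from 15 listed, with a median difference of -0.0816. Gdf10, a secreted factor of the BMP family, ranged from -0.761 through -0.453 to -0.244 in low brains, against -0.441, 0.0121 and 0.37 in the rest, and was 3.09-fold lower (adjusted p = 1.89e-48). A2m, a protease inhibitor, was 2.37-fold lower with no overlap, at -0.444, -0.372 and -0.242 in low brains against -0.229, 0.0224 and 0.247 in the rest. Hopx, a small homeodomain protein, was 1.64-fold lower and Timp4, an inhibitor of metalloproteinases, 1.43-fold. The 2 higher members were Npy and Gria1, of which Gria1 did not pass with the animal number in the fit and which neurons outside the cerebellum also express. Of 16 astrocyte genes tested, 3 were lower and 0 higher, with a median difference of -0.00235. The 3 were S100b, a calcium-binding protein (1.44-fold; adjusted p = 3.01e-17), Aqp4, a water channel (1.26-fold; adjusted p = 0.00103), and Acsbg1, an acyl-CoA synthetase (1.11-fold; adjusted p = 0.00434).

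Cerebellar interneuron genes were lower in 5 of 13 tested, from 16 listed, with 0 higher and a median difference of -0.0341. Kit, a receptor tyrosine kinase of molecular layer interneurons, was 1.47-fold lower (adjusted p = 3.26e-14), and all 16 low brains lay under the median of the rest. Pvalb, the calcium buffer parvalbumin found in Purkinje cells and in fast-spiking interneurons, was 1.42-fold lower, and 13 of 16 low brains lay under all of the rest. Eomes, a T-box factor of unipolar brush cells and of the olfactory bulb, had a lowest, median and highest value of -0.672, -0.479 and 0.435 in low brains, against -0.364, -0.0546 and 0.444 in the rest. Eomes was split within the low group, with 4 of 16 low brains at or above 0, against 91 of 224 brains of the rest. These 4, animals 8, 16, 28 and 64, also had the 4 highest values of S100a5, a marker of olfactory sensory neurons, at 0.534, 0.5, 0.935 and 0.557, against at most 0.133 in the other low brains. Olfactory bulb genes averaged between -0.117 and 0.259 in low brains and between -0.133 and 0.208 in the rest, and their part in the Eomes values was not tested. The broader markers of inhibitory cells Gad1 and Slc32a1 did not pass, and Slc32a1 had a difference of -0.0852 (adjusted p = 0.0788). With the animal number in the fit Slc32a1 was called lower (difference -0.101, adjusted p = 0.0426).

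Genes that pattern the hindbrain were lower in 13 of 23 tested, from 27 listed, while 3 were higher and 7 did not pass, with a median difference of -0.0487. En2, the engrailed factor of the midbrain-hindbrain border and the cerebellum, ranged from -1.25 through -0.921 to -0.499 in low brains, against -0.313, 0.026 and 0.452 in the rest, and was 7.84-fold lower (adjusted p = 5.65e-87). Hoxb2, a factor of the hindbrain, had -0.939, -0.523 and 0.0903 in low brains, against -0.859, -0.025 and 0.283 in the rest, and was 2.75-fold lower (adjusted p = 2.22e-12). Hoxb5, which marks the lowest brainstem and the spinal cord, had -0.763, -0.481 and 0.0321 in low brains, against -0.803, -0.041 and 0.39 in the rest, and was 2.48-fold lower (adjusted p = 9.26e-09). En2 separated the groups and the Hox genes did not. Hoxd4 was 1.66-fold lower (adjusted p = 8.47e-08) and Hoxa5 1.42-fold (adjusted p = 0.00178), but Hoxa5 no longer passed with the animal number in the fit (difference -0.068, adjusted p = 0.197). In that fit the list held 8 lower and 2 higher, since Hoxa2, Hoxb4, Hoxb6, Hoxd3 and Meis2 lost their calls as well. The 3 higher genes were Pax5, Gbx2 and Meis2, of which Gbx2, also a factor of the thalamus, was 1.32-fold higher and Meis2, also a factor of the striatum, 1.21-fold.

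The Hox genes set some low brains apart from others. Hoxb2 was below -0.2 in 14 of 16 low brains, in 5 of 8 between and in 43 of 224 of the rest (19.2%). The low brains above that level were animal 157 at 0.0903 and animal 193 at -0.0916, and the same 2 had the highest Hoxb5 values, 0.0321 and -0.193. Their Gabra6 values, -1.39 and -1.44, and En2 values, -0.867 and -1.03, lay inside the range of the other low brains, and animal 157 had the lowest Pcp2 value of the group at -0.549. Hoxb5 was below -0.2 in 14 of 16 low brains, in 6 of 8 between and in 65 of 224 of the rest (29.0%).

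Serotonin genes of the raphe nuclei, which lie in the brainstem, had low values in a subset of the low brains. The levels at which brains are counted here, as for the Hox genes, were chosen after the values were seen. Slc6a4, the serotonin transporter, was below -0.4 in 5 of 16 low brains, in 0 of 8 between and in 3 of 224 of the rest (1.34%). The 5 low brains were animals 8, 88, 28, 91 and 252, with Slc6a4 at -0.788, -0.788, -0.93, -0.43 and -0.792. The other 11 low brains lay between 0.024 and 0.411, and the mean of all 16 was -0.164 ± 0.425 (SD). Tph2, which makes serotonin in the brain, was below -0.2 in the same 5 low brains, at -0.257, -0.211, -0.337, -0.222 and -0.397, and in 2 of 8 between and 4 of 224 of the rest. Both genes were under these levels in 5 low brains, 0 between and 2 of the rest. Of these 5 animals, 4 had the 4 lowest Gabra6 values. Over the whole group the mean of Slc6a4 was lower (difference -0.166, adjusted p = 0.000551), while the difference of its medians was 0.0439 in the rank test, and Tph2 did not pass (adjusted p = 0.31). The list of brainstem and monoamine neurons as a whole held 5 lower, 6 higher and 12 that did not pass, of 23 tested, with a median difference of 0.00607. With the animal number in the fit 4 of this list were lower and 6 higher.

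**Figure D3:**
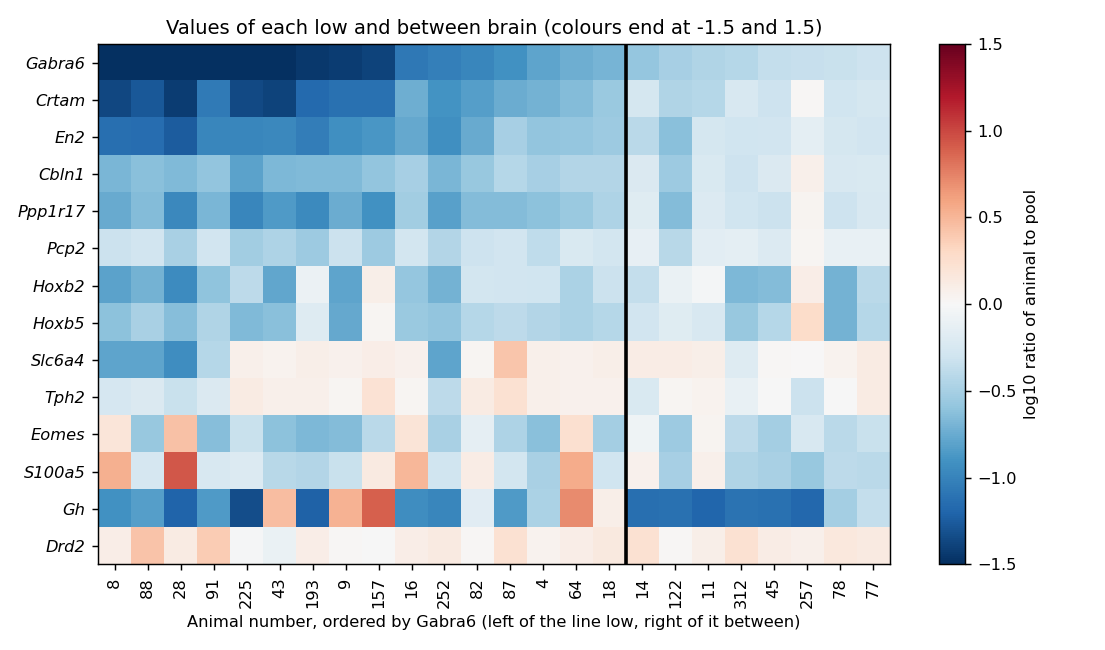
Values of 14 genes (rows) in each of the 16 low brains and the 8 brains between the thresholds (columns, ordered by Gabra6 within each group, animal numbers below); colour gives the log10 ratio of animal to pool and ends at -1.5 and 1.5. Gabra6, Crtam, En2, Cbln1, Ppp1r17 and Pcp2 are low in all 16 low brains. Slc6a4 and Tph2 are low together in 5 of them, and Hoxb2 is not low in animals 157 and 193.

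Several of the lowest transcripts carry names better known from other tissues. Crtam, an adhesion receptor described in T cells, was the gene with the largest difference after Gabra6, at -1.43, -1.09 and -0.551 in low brains, against -0.258, 0.0541 and 0.395 in the rest, a level 11.9-fold lower (adjusted p = 1.77e-95). Il22, named for a cytokine, had -1.26, -0.948 and -0.676 in low brains, against -0.383, 0.0295 and 0.633 in the rest, and was 9.42-fold lower. Il20rb, named for a cytokine receptor subunit, had -1.19, -0.917 and -0.369 in low brains, against -0.299, 0.034 and 0.455 in the rest, and was 7.74-fold lower. None of the 3 overlapped between the groups. Mybpc3, named for a myosin-binding protein of heart muscle, was 3.75-fold lower, Ptpn22, a phosphatase of lymphocytes, 3.36-fold, and Gprc5c, an orphan receptor, 3.33-fold, again with no overlap. Il23a, Jaml, Nek2 and Psg16 complete the 18 genes without overlap and were 1.77, 2.16, 2.05 and 1.74-fold lower. Chil5 was 3.33-fold lower, Corin, a protease that processes natriuretic peptides, 3.08-fold, Neb, a muscle protein, 2.69-fold, Vwa7 2.67-fold, Smpx 2.56-fold and Mdfi, an inhibitor of myogenic factors, 2.54-fold. Each was measured by 1 probe, its name comes from the platform annotation, and which transcript it measured was not tested here. Muscle genes as a list showed 1 lower (Pvalb), 0 higher and 7 that did not pass, of 8 tested. The interferon response list held 0 lower and 0 higher of 14, and the microglia list 0 lower and 3 higher of 11.

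Striatal genes were higher in 17 of 21 tested, from 26 listed, lower in 0 and not called in 4, with a median difference of 0.0874 against 0.00286 over all genes. With the animal number in the fit 16 were higher and 0 lower. Drd2, the D2 dopamine receptor, had -0.102, 0.0965 and 0.427 in low brains, against -0.377, -0.0119 and 0.427 in the rest, and was 1.34-fold higher (adjusted p = 6.2e-07). Rgs9, a regulator of G protein signalling in striatal neurons, had 0.0176, 0.108 and 0.325 in low brains, against -0.332, -0.0155 and 0.359 in the rest, and was 1.36-fold higher (adjusted p = 2.7e-09). The ranges overlapped throughout, although all 16 low brains lay over the median of the rest in Rgs9. Ptpn5, a phosphatase enriched in the striatum, was 1.32-fold higher, Pde10a, a phosphodiesterase of medium spiny neurons, 1.33-fold, Ppp1r1b, which encodes DARPP-32, 1.22-fold, and Penk, which encodes enkephalin, 1.2-fold. The homeodomain factors Six3, Dlx5 and Dlx1, which act in the ventral forebrain, were 1.44, 1.35 and 1.36-fold higher, and Lhx8, a factor of cholinergic forebrain neurons, 1.36-fold. Dlx1, also on the olfactory bulb list, did not pass with the animal number in the fit (adjusted p = 0.0619). It was highest in animals 8, 16, 28 and 64, at 0.326, 0.325, 0.417 and 0.261, the low brains highest in S100a5. The other low brains lay between -0.0187 and 0.135 in Dlx1.

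Cortical glutamatergic neuron genes were higher in 16 of 22 tested, from 30 listed, with 1 lower, 5 not called and a median difference of 0.065. With the animal number in the fit 12 were higher and 2 lower. Bcl11b, a factor of deep layer neurons and of the striatum, had -0.00123, 0.131 and 0.32 in low brains, against -0.324, -0.0272 and 0.226 in the rest, and was 1.41-fold higher (adjusted p = 4.24e-10). Tbr1, a factor of layer 6 neurons, was 1.35-fold higher (adjusted p = 7.72e-07). The 1 lower gene was Neurod2, a basic helix-loop-helix factor that granule cells also express, at 1.14-fold (adjusted p = 0.0145), while its relative Neurod6, of cortex and hippocampus, was 1.2-fold higher. Hippocampal genes were lower in 2, higher in 6 and not called in 4 of 12 tested, with a median difference of 0.0517 over all animals and 0.0169 among the higher numbers, and 4 were higher with the animal number in the fit. Pcdh8, a protocadherin, was 1.36-fold higher, while Tdo2, a tryptophan dioxygenase, was 1.49-fold lower (adjusted p = 3.45e-11). Hypothalamic genes were higher in 9 of 17 tested and lower in 0, with a median difference of 0.0462; they included Hcrt, the orexin precursor (1.31-fold), Trh, the thyrotropin-releasing hormone (1.31-fold) and Sst, somatostatin, which many forebrain interneurons also make (1.35-fold).

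**Figure D4:**
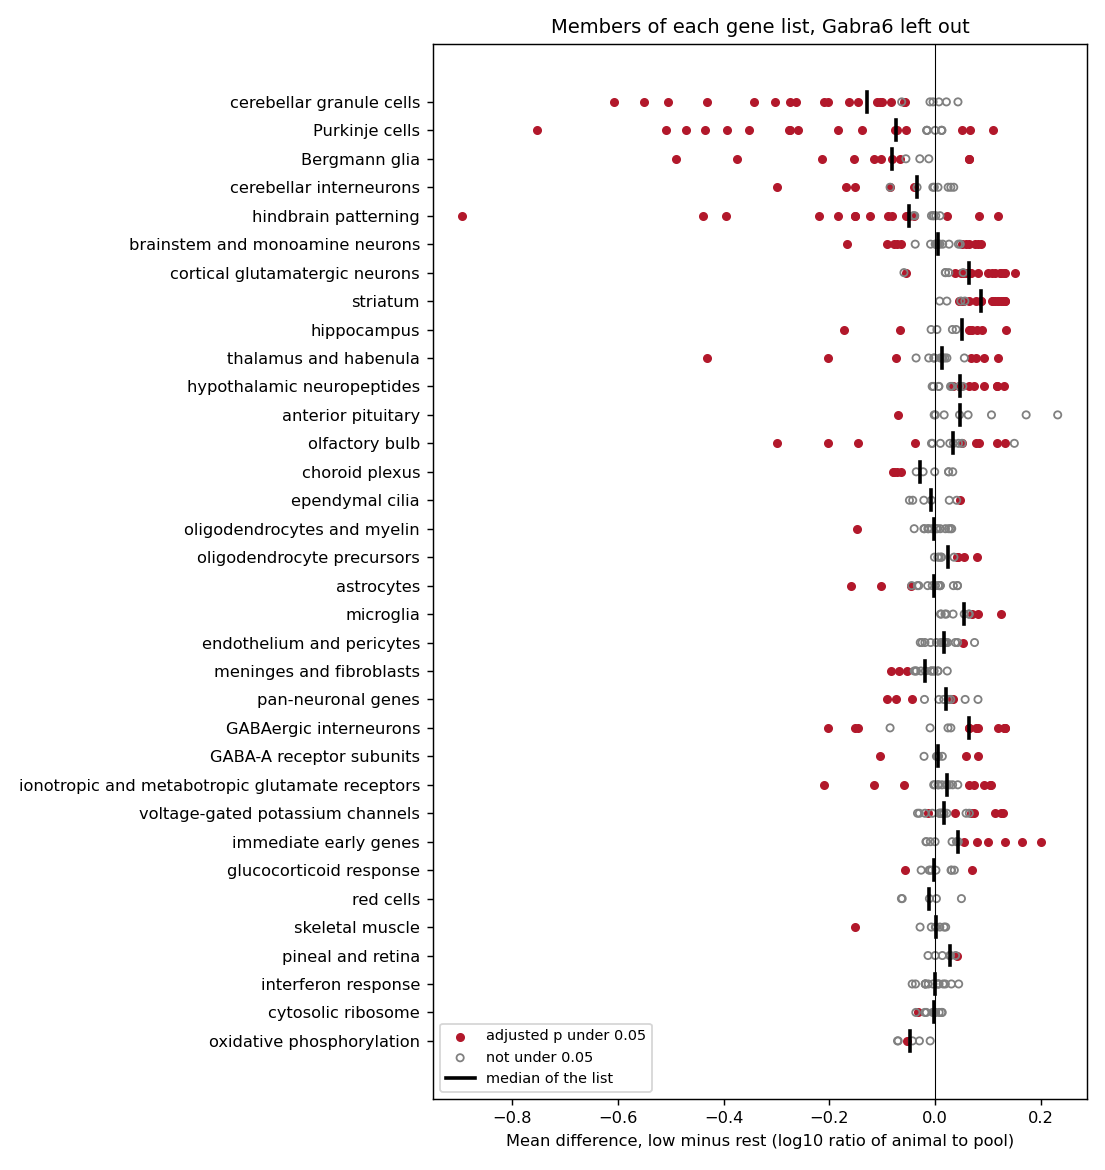
Mean difference between low and rest brains for each member of 34 gene lists (x axis, log10 ratio of animal to pool, Gabra6 left out); filled points passed an adjusted p under 0.05, open points did not, and bars mark the median of a list. Granule cell, Purkinje cell and Bergmann glia lists have their medians at -0.128, -0.0731 and -0.0816, and the striatal and cortical lists theirs at 0.0874 and 0.065.

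The largest differences among genes called higher were those of Egr4 and Arhgap32. Egr4, an immediate early factor, had -0.425, 0.16 and 0.482 in low brains, against -0.536, -0.0308 and 0.294 in the rest, and was 1.59-fold higher (adjusted p = 4.54e-06). Arhgap32, a GTPase-activating protein of synapses, was 1.54-fold higher (adjusted p = 0.000536), and these were the 2 genes that passed both the test and 1.5-fold. Immediate early genes as a list were higher in 6 of 13 and lower in 0, with a median difference of 0.0439, but with the animal number in the fit 2 remained higher. The median difference of this list was 0.0429 among the lower numbers and -0.00971 among the higher numbers. Egr2 was 1.46-fold and Arc, an activity-regulated synaptic protein, 1.36-fold higher, and Egr1 1.26-fold. Arc (adjusted p = 0.138), Egr2 (adjusted p = 0.0612), Egr1 and Nr4a1 were the 4 that no longer passed in that fit, and among the higher numbers neither Egr4 (adjusted p = 0.34) nor Arhgap32 (adjusted p = 0.29) did. Hpca, the calcium sensor hippocalcin, was 1.44-fold higher, Cacna1h, a T-type calcium channel, 1.42-fold, Rxrg, a retinoid receptor of the striatum, 1.41-fold, Actn2, an actinin of dendritic spines, 1.38-fold and Rasgrp1, an exchange factor for Ras, 1.36-fold. Other genes with higher values were Atp6v1c2, a subunit of the proton pump (1.42-fold), Pcdh10, a protocadherin (1.41-fold), Neto1, an auxiliary subunit of kainate receptors (1.41-fold), Slitrk3, a synaptic adhesion protein (1.41-fold), Rtn4rl2, a Nogo receptor relative (1.37-fold), Grasp, a scaffold of glutamate receptors (1.37-fold), Ltk, a receptor kinase (1.36-fold), and Pianp (1.35-fold).

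Slc12a1, a kidney sodium, potassium and chloride transporter, was called higher by 1.48-fold (adjusted p = 0.011), but animals 225 and 252 carried this value at 1.17 and 1.10. Its median was 0.0546 in low brains and 0.0372 in the rest. Without animal 225 its difference was 0.107 (adjusted p = 0.148) and without animal 252 it was 0.111 (adjusted p = 0.143).

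Receptor and channel families held members of both directions. Of 9 GABA-A receptor subunits tested besides Gabra6, Gabrd was lower, Gabra3 (1.2-fold) and Gabrb1 (1.14-fold) were higher and 6 did not pass. Of 18 glutamate receptor genes, Grin2c, Gria4 (1.3-fold) and Grm4 were lower and 5 were higher, among them Gria3 (1.28-fold), Grm5 (1.27-fold) and Grin2b (1.18-fold). With the animal number in the fit 4 were higher, since Gria1 lost its call. Of 21 potassium channel genes, 1 was lower (Kcnd1, not called with the animal number in the fit), 6 were higher and 14 did not pass, with Kcna5 at 1.35-fold, Kcnh3 at 1.33-fold and Kcnip2 at 1.3-fold higher. Their medians lay at 0.00553, 0.022 and 0.0166. GABAergic interneuron genes held 3 lower and 8 higher of 15. The lower ones were Calb2 (1.6-fold), Pvalb and Reln, which the granule cell and cerebellar interneuron lists also hold, and the higher ones included Sst and the neuropeptide Tac2 (1.32-fold). With the animal number in the fit this list held 4 lower and 6 higher, since Slc32a1 gained a call and Gad2 and Dlx1 lost theirs.

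Myelin genes were lower in 1 of 14, Klk6, a protease of oligodendrocytes (1.4-fold, adjusted p = 2.17e-11), with a median difference of -0.00202. Over all genes 7.81% were called lower and 10.7% higher, so 1 call in a list of 10 to 16 genes lies near that share. Precursors of oligodendrocytes had 4 higher of 10, Cspg4, Sox10, Bcan, a proteoglycan of the extracellular matrix (1.2-fold), and Pdgfra, a growth factor receptor (1.14-fold). Cspg4 did not pass with the animal number in the fit (adjusted p = 0.0753). Endothelium and pericytes had 1 higher of 16, Pdgfrb, a pericyte receptor (1.13-fold; adjusted p = 0.0348), which did not pass with the animal number in the fit. Microglia genes Laptm5 (1.33-fold), Csf1r (1.21-fold) and Trem2 (1.17-fold) were higher. Pan-neuronal genes held 3 lower, 2 higher and 7 that did not pass, of 12, and the lower ones were Elavl4 and the neurofilament genes Nefh (1.23-fold) and Nefm (1.19-fold), the higher ones Syp and Map2. Nefh alone of these 5 passed with the animal number in the fit. The ribosome list had 1 lower (Rpl5, 1.08-fold) of 11 and oxidative phosphorylation 1 lower (Ndufs4, 1.13-fold) of 6, and Ndufs4 did not pass with the animal number in the fit. Red cell genes had 0 of 5 called, with the haemoglobin gene Hbb-b1 at a difference of -0.0622 (adjusted p = 0.428). The glucocorticoid response list had Fkbp5 higher (1.17-fold) and Lcn2 lower (1.14-fold) of 10.

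Transcripts of the pituitary and of further tissues and brain regions were examined next. Their counts stand against 7.81% of all genes called lower and 10.7% called higher. Pituitary genes had 1 lower (Lhx3, a LIM homeodomain factor), 0 higher and 8 that did not pass, of 9. Gh, growth hormone, had -1.32, -0.84 and 0.892 in low brains, against -1.36, -0.988 and 1.02 in the rest (adjusted p = 0.427), and it was at or above 0 in 5 of 16 low brains and in 48 of 224 brains of the rest. Cga, the common subunit of pituitary hormones, and Pitx1 had adjusted p = 0.613 and adjusted p = 0.437. Choroid plexus genes had 4 lower and 0 higher of 10, with a median difference of -0.0292; Ttr, transthyretin, was 1.19-fold lower (adjusted p = 0.00813), Folr1 1.2-fold and Kcnj13 1.18-fold, with Otx2 the fourth, and neither Folr1 nor Kcnj13 passed with the animal number in the fit (adjusted p = 0.662 and adjusted p = 0.216). Meninges and fibroblast genes had 3 lower of 15, with Dcn, decorin, at 1.21-fold, Lum, lumican, at 1.17-fold and Igf2 at 1.13-fold. Igf2 did not pass with the animal number in the fit (adjusted p = 0.106). Olfactory bulb genes had 4 lower (Eomes, Calb2, Reln and Sp9) and 5 higher (Fst, Dlx2, Meis2, Trh and Dlx1) of 17, with Dlx1 and Meis2 not called once the animal number was in the fit, and S100a5 had a difference of 0.15 (adjusted p = 0.326). Ependymal and pineal or retinal lists had 1 higher each, of 7 each, Spag6l (1.11-fold) and Sag (1.1-fold). Thalamic genes had 3 lower and 4 higher of 17, the lower ones being Zic1, Calb2 and Nefm, which cerebellar or pan-neuronal lists also hold, and the higher ones Prkcd, Ntng1, Tnnt1 and Tac2. Nefm was not called with the animal number in the fit (adjusted p = 0.197). Lhx3, Kcnd1, Cspg4, Elavl4, Syp, Map2, Sp9, Fst, Dlx2, Otx2, Prkcd, Ntng1 and Tnnt1 are named only to complete their counts. What part the amount of each tissue had in the differences was not tested.

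Within the 16 low brains, correlations with Gabra6 are given as a description, with no test, because Gabra6 chose these brains and most of the 8 genes examined were taken for their large differences. Pearson's r was 0.936 for Crtam (Spearman's coefficient 0.891), 0.906 for En2 (Spearman 0.932), 0.88 for Il20rb (Spearman 0.765), 0.804 for Il22 (Spearman 0.794) and 0.758 for Cbln1 (Spearman 0.721). Ppp1r17 had r = 0.625 (Spearman 0.647), Hoxb2 r = 0.474 (Spearman 0.576) and Pcp2 r = 0.36 (Spearman 0.406). Without the 2 brains farthest from the median of Gabra6, r was 0.91 for Crtam, 0.868 for En2, 0.86 for Il20rb, 0.728 for Il22, 0.655 for Cbln1, 0.472 for Ppp1r17, 0.48 for Hoxb2 and 0.169 for Pcp2. All values of 1 brain come from 1 array.

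The 8 brains between the thresholds were not uniform. For this purpose 5 genes, Crtam, En2, Cbln1, Ppp1r17 and Pcp2, were counted as under the rest when they lay below its lowest brain. Animal 122 was under the rest in 5 of 5, with Cbln1 at -0.542, En2 at -0.627 and Pcp2 at -0.412, values within the range of the low brains. Animal 257 was under it in 0 of 5, with Cbln1 at 0.0755 and Pcp2 at 0.0311, although its Gabra6 was -0.351. The other 6 were under it in 2 or 3 of 5. All 16 low brains were under it in 5 of 5, but the choice of genes fixed this. Each of the 5 was among the genes in which no low brain overlapped with the rest.

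Slopes on Gabra6 among the 224 brains of the rest are likewise a description, since Gabra6 also set the limit of the rest and these brains enter the comparison above. Per log10 unit of Gabra6, the slope was 0.473 ± 0.036 (SE) for Chn2, 0.196 ± 0.045 for Cbln1, 0.184 ± 0.032 for Pcp2 and -0.0908 ± 0.049 for Homer3. It was -0.389 ± 0.041 for Drd2, 0.252 ± 0.07 for Hpca and -0.0286 ± 0.082 for Zic1. The genes given here are examples. Of all 11507 genes, limma called 2566 positive and 3817 negative slopes at an adjusted p under 0.05. A slope on Gabra6 was thus not particular to the genes given.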

How the data were processed

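RNA of 249 F2 mouse brains was measured on 1 two-colour array per animal. Per the labels, animal RNA carried Cy3 and the pool Cy5, and the values the authors deposited were taken as log10 of animal over pool. The Y-linked genes Eif2s3y and Kdm5d set this scale and sign: their upper level was 0.319 and 0.351, against the 0.301 (log10 of 2) of a mixture with females and males in equal parts. Array medians ran from -0.00627 to 0.0250 and values ended at exactly -2 and 2, with 113 and 83 values there. How the arrays were scanned, background-corrected and normalized is not given in the sources used here. Signal over background is unknown, and precision is limited by how many arrays there are. Of 30628 pairs of arrays, 6 correlated below -0.3 (lowest -0.344, median 0.314); 1 dye order is labelled for all, and the direction was kept. No 2 arrays held the same values, and 0 columns could not be mapped.

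Of 23388 probes, 13645 carried 1 gene symbol, 48 several and 9695 none in the platform annotation. The 13444 of them measured on at least 90% of arrays gave 11508 genes by their mean, with gaps (0.0821% of these values) set to that probe's mean; 12653 probes matched RefSeq by Entrez number, and the file's symbol was kept otherwise. Animals were grouped by Gabra6 as described, animal 144 was left out, and for 1 sample whose title and source name disagree the animal number of the source name was used. Low and rest brains were compared with limma 3.58.1 in R 4.3.3 (lmFit and eBayes) with Benjamini-Hochberg adjustment over all 11507 genes other than Gabra6, after a check of the fit on simulated data. Slopes on Gabra6 within the rest came from the same tool. Like correlations with Gabra6 among the low brains, they are given without a test for single genes. Only the background count of slopes over all genes uses the adjusted p. The permutation test of animal number used 100000 resamples in scipy 1.17.1. Each animal is 1 sample, and p-values measure the spread between animals.

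The members, the 34 gene lists and the rule for named genes were chosen with earlier results of these data known. The rule named Gabra6, Cbln1 and Pcp2, the 25 lower and 25 higher genes with the largest differences at an adjusted p under 0.05, and the 3 members of each list with the largest differences. Other settings varied the probe summary, missing values, array scaling, thresholds, animal number, array weights, prior and test, and left out each low animal.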

Additional observations from a re-analysis of the deposited data

Results flagged for a closer look

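Among the 8 brains between the thresholds, both ends of 50 genes' values were examined for a brain far from the others (Dixon's ratio above 0.526), which chance flags in about 1 group of 20 at each such test. Animal 257 stood above the others in Crtam at 0.0192, in Il22 at -0.112, in Chil5 at 0.101 and in Slc12a1 at 2, the upper limit of the scale. Animal 122 stood below them in Gdf10 at -0.473, in Rtn4rl2 at -0.218 and in Pianp at -0.115. Animal 14 stood below them in Corin at -0.497 and in Atp6v1c2 at -0.254.

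An interaction test with limma asked whether the difference between low and rest brains was unlike among lower and higher animal numbers. It was called for 3 of the 50 genes with the largest differences. The difference among lower numbers minus that among higher numbers was 0.171 for Pcp2, 0.234 for Ppp1r17 and -0.686 for Slc12a1. The difference of Pcp2 was -0.358 among the lower numbers and -0.529 among the higher, and that of Ppp1r17 -0.705 and -0.938. That of Slc12a1 was 0.0467 and 0.733, and the part among higher numbers holds 3 low brains. These were animals 193, 225 and 252, with Slc12a1 at 0.0178, 1.17 and 1.10, so animals 225 and 252 carried its interaction too. Over all genes the interaction was called for 28.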

How the results depend on the processing

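No paired analysis was possible because the labels put all animals in 1 group and each animal has 1 array. Against 899 genes lower, 275 were lower among the higher animal numbers and 1428 with array weights. Against 1233 genes higher, 716 were higher among the lower numbers, 264 among the higher numbers and 1934 with array weights. Against 2 genes higher by 1.5-fold or more, the count was 4 with arrays scaled to one interquartile range, 1 among the lower numbers, 23 among the higher numbers, 9 with array weights and 4 by the rank test. Leaving out each low animal or animal 208 gave 782 to 1048 genes lower, 1036 to 1448 higher, 81 to 90 lower by 1.5-fold and 2 to 6 higher by 1.5-fold, the 6 without animal 43 and 4 without animal 64, 82, 87, 88 or 193. The counts under the other settings stayed within 1.5 times. The parts by animal number hold fewer samples.

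Over these settings, 68 genes called lower kept their call in 2032 of 2102 values, lost it in 67 and turned in 3; 63 called higher kept it in 1850 of 1952 and lost it in 102, most often among the higher numbers with 3 low brains. Among 28 genes not called, 36 of 864 values gained a call and 11 turned. The median differences of Slc6a4 and Tph2 were 0.0439 and 0.0428 in the rank test. Among the higher numbers the differences were -0.558 for Gh, -0.387 for Cga, -0.121 for Pitx1, -0.051 for S100a5, 0.0040 for Folr1, 0.0403 for Kcnj13, -0.00197 for Rsad2, 0.0412 for Usp18, 0.0157 for Ifit3, 0.0324 for Rps3 and 0.0019 for Rpl27, opposite in sign to those over all animals, and -0.0357 for S100a5 with the animal number in the fit. The cause was not tested.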
